A study of Mus musculus with 11 samples.

Results

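The 9 genes described here serve the response of cells to thyroid hormone. They are the hormone receptors Thra and Thrb, the retinoid X receptors Rxra and Rxrg, the corepressor Ncor1, the transporter Slco1c1, the deiodinase Dio2 and the target genes Klf9 and Hr. They were chosen by symbol, and each had 1 row in a table of 21534 gene regions that gives a lamin B1 contact score in each of 6 libraries. The scores came from DamID, in which the bacterial enzyme Dam, fused to the nuclear lamina protein LMNB1, methylates adenine within GATC close to the nuclear envelope, and free Dam controls for how easily DNA is reached. The cells were oligodendrocyte precursors from the cortex of C57BL/6 mice of postnatal day 7. Lentivirus delivered either the Dam-LMNB1 fusion or Dam alone over 1 day, and 72 h followed in proliferation medium (PF in the labels, called OPC here) or in differentiation medium (T3 in the labels, called OL here). All titles carry WT, and the controls were transduced too. There were 3 OPC Dam-LMNB1 libraries (numbered 8, 9 and 10), 3 OL Dam-LMNB1 libraries (18, 19 and 20), 2 OPC Dam libraries and 3 OL Dam libraries. The labels describe all of them as primary OPC in one field and the T3 cells as oligodendrocytes in another. DamID measures no RNA, so cell identity was not checked against marker genes and no score is a level of expression.

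T3 is the common name of triiodothyronine, the active thyroid hormone, which is widely used in media for oligodendrocyte differentiation. The components of the medium used in this study are not known here. Thyroid hormone receptors bind DNA as heterodimers with retinoid X receptors, hold corepressors such as NCOR1 in the absence of hormone and exchange them for coactivators when hormone binds. Hormone enters brain cells through membrane transporters, deiodinase 2 converts thyroxine into T3, and T3 is known to promote cell cycle exit and myelin formation in the oligodendrocyte lineage.

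A score above 0 means more methylation by Dam-LMNB1 than by Dam, read as contact with the lamina, and a score below 0 means less. The log base is not stated, so values are in score units and not folds. A region is a gene with flanks, most often 10000 bp upstream and 2000 bp downstream, so promoter, exons and introns share 1 value. The median of all regions was −1.54 in OPC and −1.47 in OL. Library OL 18 had the smallest SD over regions (1.46, against 1.53 to 1.59 in the other 5). Read depth is unknown. The labels name no separate cultures or animals, and the p-values therefore reflect spread among libraries that may be technical. Scores of a medium share 1 pooled Dam control, whose own variation enters no p-value.

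Start sites show what the Thrb and Rxrg scores cover, since RefSeq (GRCm38.p6) gives each gene a pair of alternative starts. The 250 bases before each start are printed 5′ to 3′ in the direction of the gene. Capitals mark GATC, the site that Dam methylates, and AGGTCA or its reverse complement TGACCT, the half-site of this class of nuclear receptor. The upstream Thrb start (chr14:17660710-17660959, plus strand) lay 311 kb outside the scored region, and the downstream start (chr14:17981394-17981643) lay inside it. The Rxrg starts (chr1:167598112-167598361 and chr1:167618015-167618264, plus strand) were 19.9 kb apart and both lay inside.
Thrb upstream start: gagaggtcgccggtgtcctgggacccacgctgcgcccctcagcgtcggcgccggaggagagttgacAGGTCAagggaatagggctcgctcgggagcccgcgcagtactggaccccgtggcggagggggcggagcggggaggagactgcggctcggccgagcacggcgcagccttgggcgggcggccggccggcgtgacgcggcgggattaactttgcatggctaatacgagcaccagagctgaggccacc
Thrb downstream start: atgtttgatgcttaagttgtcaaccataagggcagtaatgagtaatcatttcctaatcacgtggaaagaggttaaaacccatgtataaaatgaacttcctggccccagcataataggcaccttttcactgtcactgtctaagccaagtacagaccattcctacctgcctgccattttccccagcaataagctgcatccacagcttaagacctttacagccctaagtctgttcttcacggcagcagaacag
Rxrg upstream start: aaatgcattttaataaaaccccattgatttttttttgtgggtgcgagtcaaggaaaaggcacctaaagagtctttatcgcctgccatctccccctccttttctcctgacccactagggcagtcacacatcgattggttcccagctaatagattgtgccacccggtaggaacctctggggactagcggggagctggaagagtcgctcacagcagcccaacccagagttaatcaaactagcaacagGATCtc
Rxrg downstream start: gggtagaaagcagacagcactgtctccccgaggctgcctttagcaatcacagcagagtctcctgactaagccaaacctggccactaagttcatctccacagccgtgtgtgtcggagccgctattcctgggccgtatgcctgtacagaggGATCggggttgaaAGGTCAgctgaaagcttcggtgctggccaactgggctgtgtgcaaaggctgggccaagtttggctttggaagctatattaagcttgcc

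Each Rxrg window held 1 GATC and neither Thrb window held any. The half-site occurred once in the downstream Rxrg window and once in the upstream Thrb window. In all, 11 windows were found for 7 of the 9 genes, without Thra and Hr. GATC was present in 4 of the 11, those of Rxrg, Slco1c1 and Dio2, and in 41.9% of 32851 promoter windows of equal length. AGGTCA on either strand was present in 3 of the 11, the other being a Rxra window with 2 copies, and in 4607 of the 32851. The direct repeat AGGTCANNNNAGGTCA, searched on both strands and made of the same half-sites, was in 0 of the 11 and in 0.0152% of all windows. These matches describe letters only.

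The 9 genes lay on both sides of 0, from Ncor1, near the lowest scores of the table, to Thrb, which stood above 86.9% of regions in OPC. Thrb, Slco1c1 and Dio2 were above 0 in all 6 libraries, as were 24.8% of regions. Thra, Hr, Klf9, Rxra and Ncor1 were below 0 in all 6, as were 70.0% of regions, and Rxrg had both signs. By limma at an adjusted p under 0.05, 3 of 9 were above 0 and 5 of 9 below 0 in OPC, beside 25.5% and 71.4% of regions. In OL 3 of 9 were above and 6 of 9 below, beside 25.9% and 70.9%.

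**Figure D1:**
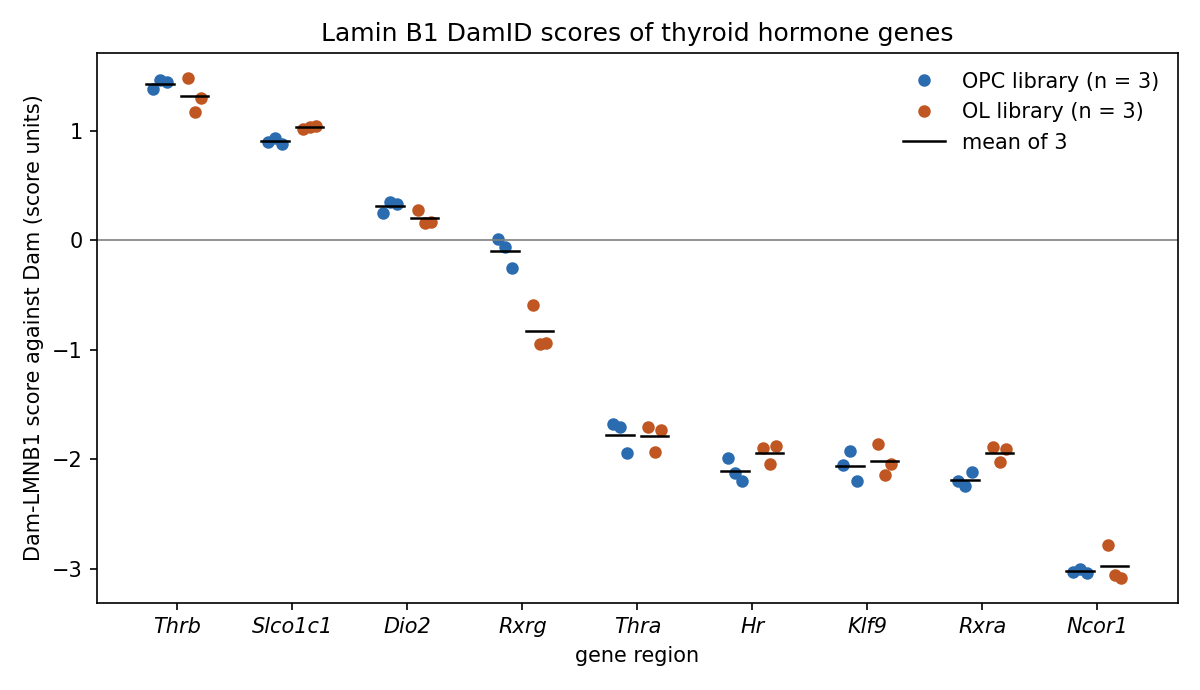
Lamin B1 DamID score (score units, vertical axis) of the 9 gene regions in 3 OPC (blue) and 3 OL (orange) libraries, with bars at the mean of 3. Thrb, Slco1c1 and Dio2 lie above 0 in all 6 libraries, and Rxrg is the gene whose groups lie farthest apart.

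The receptor genes lay on opposite sides of 0. Thrb encodes TRβ, known for hormone feedback and sensory development. Its region (chr14:17971643-18040088) scored 1.38, 1.47 and 1.44 in the OPC libraries, and 1.48, 1.17 and 1.30 in the OL libraries, in the order given above. All were above 0 and the media overlapped. The region covered 18.0% of the 381 kb gene, so its upstream part was not scored. Thra encodes TRα, the main receptor type of brain. Its region (chr11:98731784-98771006) scored −1.68, −1.71 and −1.94 in OPC, then −1.71, −1.93 and −1.73 in OL. All were below 0 and the media overlapped. Within a library Thrb exceeded Thra by 3.03 to 3.39 score units.

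The retinoid X receptors are shared partners of the thyroid hormone, retinoic acid and vitamin D receptors. Rxra (chr2:27667200-27765319), the widely expressed form, scored −2.20, −2.24 and −2.12 in OPC, then −1.89, −2.03 and −1.91 in OL. All OL values lay above all OPC values and far below 0. Rxrg (chr1:167588361-167641623), known from brain, muscle and the oligodendrocyte lineage, scored 0.01, −0.06 and −0.26 in OPC, then −0.59, −0.95 and −0.94 in OL. The OPC values lay around 0 and every OL value lay below them. The OPC mean of −0.10 ± 0.14 (SD, n = 3) was not told apart from 0 (limma adjusted p = 0.230), while the OL mean of −0.83 ± 0.20 was below 0 (limma adjusted p = 2.15e-06). Rxrg exceeded Rxra by 2.08 ± 0.19 in OPC and by 1.11 ± 0.16 in OL.

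Slco1c1 and Dio2 supply and activate the hormone. Slco1c1 encodes OATP1C1, a thyroxine carrier of brain endothelium and astrocytes (chr6:141514385-141572177). It scored 0.90, 0.93 and 0.88 in OPC, then 1.01, 1.04 and 1.04 in OL, with the OL values all higher. Dio2, known in brain as an astrocyte enzyme (chr12:90722551-90748438), scored 0.25, 0.35 and 0.33 in OPC, then 0.28, 0.16 and 0.17 in OL. Its media overlapped, and its means were above 0 in OPC (limma adjusted p = 1.23e-04) and in OL (limma adjusted p = 0.00262).

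The target genes and the corepressor gene lay far below 0. Klf9, a zinc finger factor induced by T3 in neural cells (chr19:23131225-23168911), scored −2.06, −1.92 and −2.20 in OPC, then −1.86, −2.14 and −2.04 in OL. Hr, a hormone-induced gene of brain that encodes the corepressor hairless (chr14:70544055-70575548), scored −1.99, −2.13 and −2.20 in OPC, then −1.90, −2.05 and −1.88 in OL. Media overlapped for both genes. In OPC 30.3% of regions were lower than Klf9 and 28.3% were lower than Hr. Ncor1, whose product recruits histone deacetylase 3 (chr11:62314425-62448515), scored −3.03, −3.00 and −3.03 in OPC, then −2.78, −3.06 and −3.08 in OL. These overlapping values were the lowest of the 9, and only 0.423% of regions were lower in OPC and 0.149% in OL. The Ncor1 region covered 93.7% of the gene, and the upstream start of Ncor1 lay 8.8 kb outside it.

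Ordered by the mean of 6 libraries, the genes ran Thrb, Slco1c1, Dio2, Rxrg, Thra, Hr, Klf9, Rxra and Ncor1. Ranges of neighbours overlapped from Thra through Hr and Klf9 to Rxra, so the order there is within the spread of libraries, and elsewhere they did not overlap. The range was 0.962 score units for Rxrg and 0.163 to 0.357 for the other 8.

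The media comparison asked whether lamina contact differed after differentiation medium. By limma at an adjusted p under 0.05, 1 of 9 genes was lower in OL (Rxrg) and 1 higher (Rxra), beside 10.9% and 23.0% of regions. OL libraries lay wholly below OPC libraries for Rxrg and wholly above for Rxra and Slco1c1, beside 15.4% and 33.5% of regions. Of all called regions 67.9% were higher in OL, and 50.5% once libraries were given equal mean and SD. The authors' deposited table had 0 of 9 genes at an adjusted p under 0.05, beside 3.14% of regions.

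Rxrg fell by 0.72 score units (SE 0.11, 95% interval −0.97 to −0.47, limma adjusted p = 0.00210), rank 152 from the lowest change of 21534. The call held without each of the 6 libraries in turn and under 3 scalings. Without shared spread between regions it was lost (adjusted p = 0.0786), and in the authors' deposited table its adjusted p was 0.0863.

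Rxra rose by 0.25 (SE 0.08, 95% interval 0.06 to 0.44, limma adjusted p = 0.0470), against a median change of 0.10 over all regions. The call was lost without any 1 library (limma adjusted p up to 0.142) and under all 3 scalings, which gave 0.09 to 0.17. In the authors' deposited table its adjusted p was 0.0931.

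The other 7 genes did not pass the test. Their 95% intervals were −0.31 to 0.08 for Thrb, −0.01 to 0.27 for Slco1c1, −0.26 to 0.05 for Dio2 and −0.24 to 0.22 for Thra. They were −0.04 to 0.37 for Hr, −0.19 to 0.28 for Klf9 and −0.17 to 0.27 for Ncor1. A fall as large as that of Rxrg lies outside each of them, and differences within an interval cannot be told apart here.

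**Figure D2:**
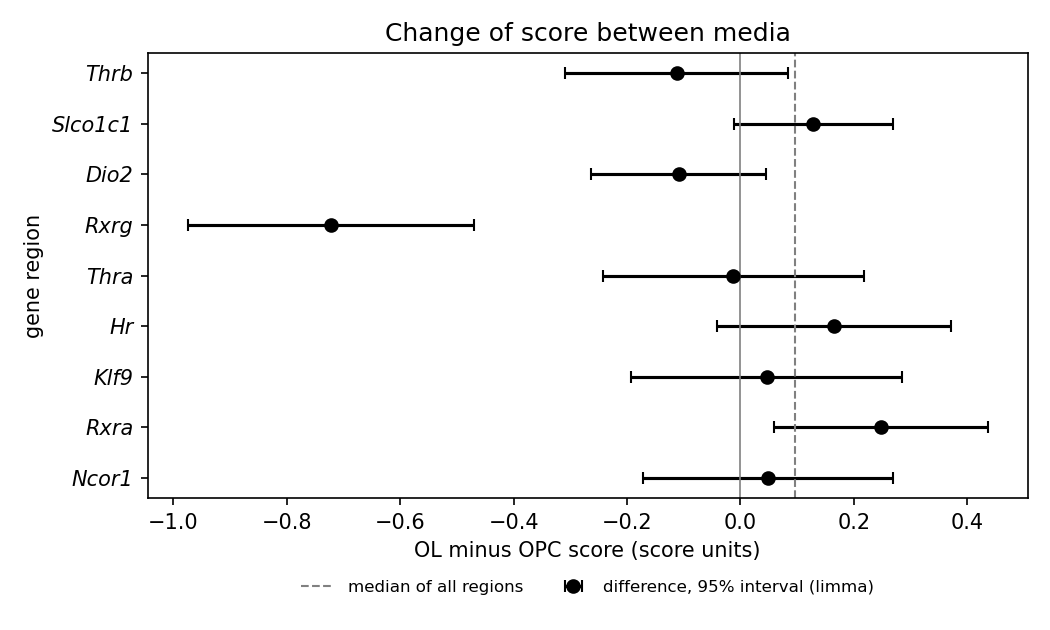
OL minus OPC score (score units, horizontal axis) of the 9 gene regions with 95% intervals from limma (n = 3 libraries per medium); the dashed line is the median change of all regions, 0.10. The interval of Rxrg lies below 0, that of Rxra above 0, and the other 7 include 0.

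Of 11 other regions within 1 Mb of Rxrg, 6 were lower in OL by limma, 0 were higher and the rest did not pass, beside 10.9% lower and 23.0% higher over all regions. Of 57 called genes among the members, their neighbours and the pathway lists that were checked one by one, 6 kept the call in the test without shared spread between regions, so nearly every call named from here on rests on that sharing. Lmx1a, a homeobox gene of midbrain development 37.9 kb away, fell from 0.25 ± 0.07 to −0.20 ± 0.11 (n = 3, SD; limma adjusted p = 0.00332). Aldh9a1, an aldehyde dehydrogenase gene 218 kb away, fell by 0.54 (limma adjusted p = 0.00345). Both calls held without each library in turn and were lost without shared spread (adjusted p = 0.0690 and 0.0987). Lrrc52, the nearest region above 0 in all libraries (112 kb), fell from 0.60 ± 0.11 to 0.26 ± 0.19 (limma adjusted p = 0.0321), a call kept in 2 of 6 fits that each left out 1 library. Mgst3, Uck2 and Mir6348 fell by 0.23, 0.24 and 0.39, each called in at most 2 of those 6 fits. Farther off, Fmo9 at 897 kb stood at 1.94 ± 0.03 in OPC and 2.10 ± 0.08 in OL and did not pass the test (limma adjusted p = 0.112).

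**Figure D3:**
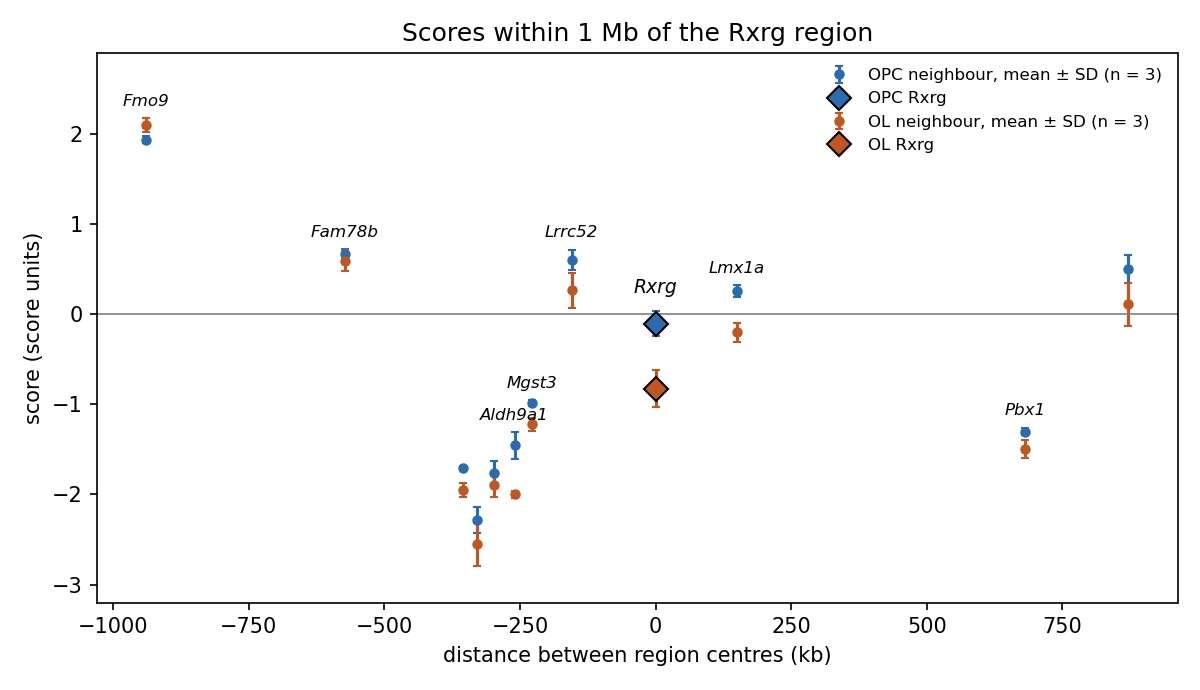
Mean score ± SD (n = 3 libraries, score units) of Rxrg (diamonds) and 11 other regions within 1 Mb, against distance between region centres in kb, in OPC (blue) and OL (orange). Lmx1a, Lrrc52 and Aldh9a1 are lower in OL, as Rxrg is, and Fmo9 did not pass the test.

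Thrb stood above its near neighbours. The 4 regions within 500 kb, Nr1d2, Nkiras1, Rpl15 and Ube2e1, were below 0 in every library. All lay downstream of Thrb, and Rpl15 lay inside the Nkiras1 region, so they are not separate readings. Ube2e2, downstream at 531 kb, was above 0 in every library (0.71 ± 0.06 in OPC and 0.88 ± 0.02 in OL). Nr1d2, which encodes the repressor REV-ERBβ, lay 162 kb away and fell from −0.97 ± 0.10 to −1.36 ± 0.17 (n = 3, SD; limma adjusted p = 0.0194), a call kept in 2 of 6 fits that each left out 1 library. The retinoic acid receptor gene Rarb, 879 kb away, was above 0 throughout and rose from 0.42 ± 0.03 to 0.80 ± 0.02 (limma adjusted p = 0.00276).

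Slco1c1 lay beside a cluster of higher-scoring relatives. Slco1b2, Slco1a4 and Slco1a1 scored 2.46, 2.46 and 2.56 in OPC, and Slco1c1 scored 0.90. Within 1 Mb, 12 of 16 regions were above 0 in all libraries, beside 24.8% of all regions. In OL 11 were lower and 1 higher, beside 10.9% and 23.0% of all regions. Some of these regions overlap and share signal, such as Iapp inside Slco1a5 and Spx with Gys2, so the counts are not of separate readings. Gys2, the liver glycogen synthase gene, fell by 0.67 (limma adjusted p = 4.47e-04) and Ldhb, a lactate dehydrogenase gene, by 0.71 (limma adjusted p = 0.00172). Slco1 genes resemble each other, and the placing of reads between such copies is unknown, which leaves single members of the cluster uncertain.

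Dio2 lay between higher-scoring genes. Cep128 at 248 kb scored 0.89 ± 0.03 in OPC, and the neurexin gene Nrxn3 at 386 kb scored 1.11 ± 0.01 (SD, n = 3). Of 5 regions within 1 Mb, 4 were lower in OL, beside 10.9% of all regions. Among them the thyrotropin receptor gene Tshr fell from 0.61 ± 0.05 to 0.19 ± 0.08 (limma adjusted p = 0.00276).

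**Figure D4:**
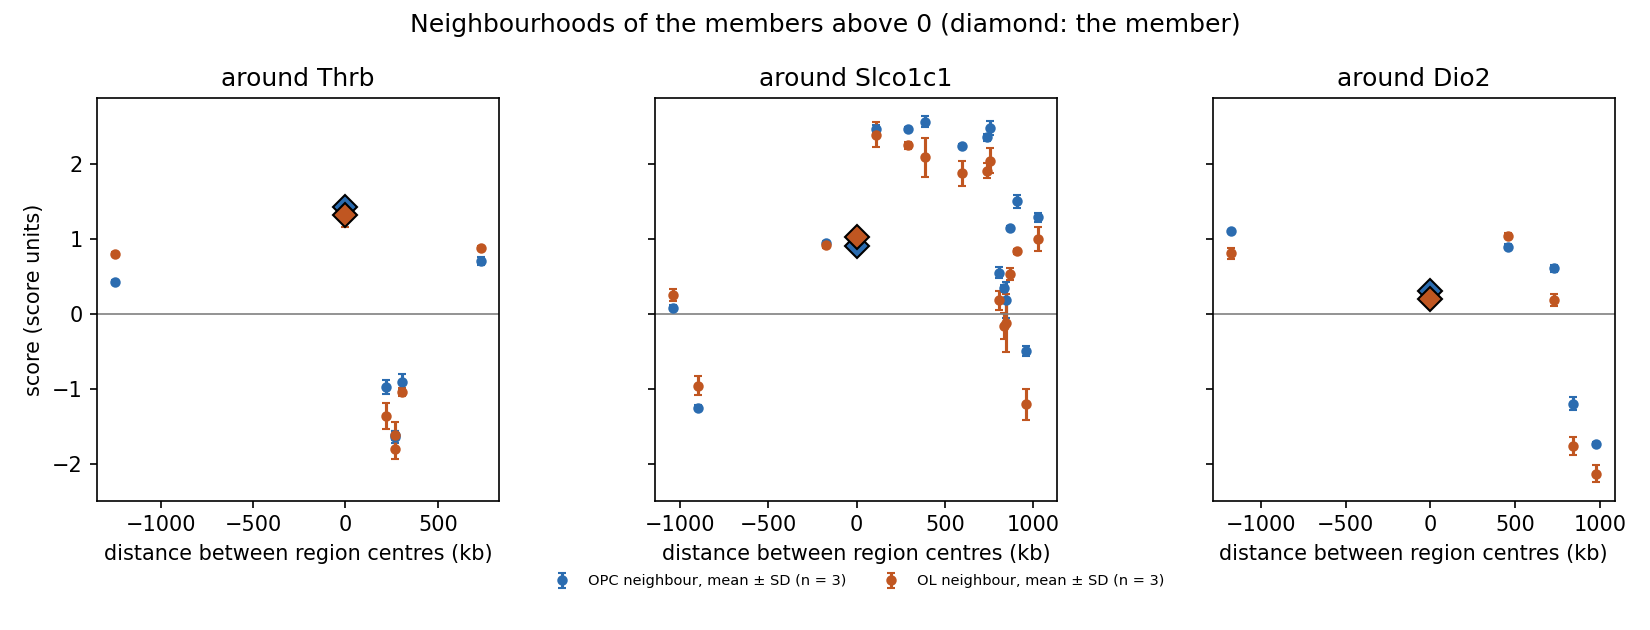
Mean score ± SD (n = 3 libraries, score units) of Thrb, Slco1c1 and Dio2 (diamonds) and other regions within 1 Mb of each, against distance between region centres in kb, in OPC (blue) and OL (orange). Thrb stands above its near neighbours and Slco1c1 below the Slco1 cluster.

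Hr, Klf9, Rxra and Ncor1 lay among regions below 0. No region within 1 Mb of Hr (31 regions), Klf9 (9), Rxra (36) or Ncor1 (36) was above 0 in all libraries. Over all regions the share above 0 in all libraries was 24.8%, and the 9 around Klf9 are too few for a firm share. In OPC the median of these neighbours was −2.09 for Hr, −2.26 for Rxra and −2.33 for Ncor1, beside −1.54 over all regions. Around Klf9 it was −1.54 in OPC and −1.82 in OL, beside −1.54 and −1.47 over all regions. The nearest region above 0 in all libraries was 1649 kb from Klf9 (Gda) and 1878 kb from Hr (Adam28). It was 3314 kb from Rxra (Il1rn) and 3470 kb from Ncor1 (Olfr311). For Thra it was the keratin gene Krt20 at 655 kb. Around Rxra 16 of 36 regions were higher in OL and 0 lower, beside 23.0% and 10.9% of all regions. Their median change was 0.26, beside 0.10. Regions here also overlap, such as Mir7578 inside Brd3, so the counts are not of separate readings. The counts around Rxra were not recomputed under other scalings, and its nearest neighbour Col5a1, higher by 0.28 (limma adjusted p = 0.0416), lost the call under all 3.

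Some regions overlap and share signal. Thra overlapped Med24 by 7.65 kb and the REV-ERBα gene Nr1d1, on the opposite strand, by 5.08 kb, and neither passed the test. Hr overlapped Reep4 and Nudt18, and Nudt18 was higher in OL by 0.40 (limma adjusted p = 0.0201), a call lost under quantile normalization and at equal mean and SD (limma adjusted p = 0.0881 and 0.0725) and kept in 3 of 6 fits that each left out 1 library. Mir1192 lay wholly inside the Klf9 region. Ncor1 overlapped Pigl and, by 4.02 kb, Ttc19, which rose by 0.42 (limma adjusted p = 0.0134), a call kept in 5 of those 6 fits.

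Likeness of pattern was the root mean square difference over the 6 scores, in score units, to protein-coding genes on other chromosomes. The closest to Rxrg were Gbp3 (0.113) and Lrig3 (0.120), and the closest to Rxra were Dpp9 (0.0297) and Dnah2 (0.0383). Thrb was closest to the mineralocorticoid receptor gene Nr3c2 (0.0758) and the GABA receptor gene Gabra5 (0.0763), and Thra to Creg1 (0.0610) and Tpbgl (0.0735). Slco1c1 was closest to the glutamate receptor gene Grm3 (0.0160) and to Lurap1l (0.0299), and Dio2 to Enpp2 (0.0481) and Cep85l (0.0531). Klf9 was closest to Tspan31 (0.0589) and Lrrc74b (0.0600), Hr to Tceb2 (0.0458) and Prdm12 (0.0503), and Ncor1 to Rbm5 (0.0464) and Nktr (0.0615).

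Other genes of the pathway were described by function. List counts of change are read beside the 23.0% of all regions that were higher in OL and the 10.9% that were lower. List counts against 0 are read beside 25.5% of all regions above 0 and 71.4% below 0 in OPC. In OL these shares were 25.9% and 70.9%. All 14 coregulators were below 0 in both media, with a median score of −2.26 in OPC. In OL 4 were higher and 2 lower, which turned to 2 higher and 4 lower with libraries at equal mean and SD. The coactivator Ncoa2 rose from −0.64 ± 0.02 to −0.27 ± 0.08 (n = 3, SD; limma adjusted p = 0.00493). Ncoa1, of the same coactivator family, fell from −1.76 ± 0.04 to −2.35 ± 0.03 (limma adjusted p = 0.00109). Ncoa6 fell by 0.33 (limma adjusted p = 0.0371), a call kept in 1 of 6 fits that each left out 1 library. Hdac3, a deacetylase of the NCOR complex, was higher by 0.37 (limma adjusted p = 0.0194), a call lost under quantile normalization and at equal mean and SD (limma adjusted p = 0.107 and 0.0886) and kept in 4 of 6 fits that each left out 1 library.

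Of 15 transport and metabolism genes, 3 were above 0 and 11 below in OPC, and 3 were higher and 4 lower in OL. Slc16a10, which encodes the thyroid hormone and amino acid transporter MCT10, rose from −0.98 ± 0.08 to −0.55 ± 0.11 (n = 3, SD; limma adjusted p = 0.00576). Slco1a5 fell by 0.44 from 2.35 (limma adjusted p = 0.00354). Crym, which encodes a T3-binding protein, and the sulfotransferase gene Sult1a1 were lower by 0.22 and 0.30, each called in 1 of 6 fits that left out 1 library. Secisbp2 was higher by 0.27, a call lost under all 3 scalings, and Slco1a4 lower by 0.22, a call lost without any 1 library.

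Of 16 partner and related nuclear receptors, Rarb was above 0 and 15 were below in both media, and 4 were higher and 2 lower in OL. Rxrb, the remaining retinoid X receptor, rose from −1.50 ± 0.08 to −1.03 ± 0.12 (n = 3, SD; limma adjusted p = 0.00462). Nr4a1 rose by 0.44 (limma adjusted p = 0.00423), and Pparg, the adipocyte receptor, fell by 0.31 (limma adjusted p = 0.0162), a call kept in 4 of 6 fits that each left out 1 library (limma adjusted p up to 0.0543). The calls for Rxrg and Rxrb, in opposite directions, held under all 3 scalings.

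Of 20 hormone-responsive genes of brain and liver, 4 were above 0 and 16 below in OPC, and 3 were higher and 4 lower in OL (1 and 6 at equal mean and SD). Me1, the malic enzyme gene, fell from −0.54 ± 0.03 to −1.13 ± 0.09 (n = 3, SD; limma adjusted p = 9.95e-04) and the nuclear receptor gene Rora fell by 0.45 (limma adjusted p = 0.00454). Nefh, Nrgn and Calb1 were higher by 0.31, 0.30 and 0.26, but each call was lost under at least 1 scaling. Calb1, Camk4 and Itpr1 were above 0 in every library.

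Of 18 genes of the thyroid gland and pituitary axis, 4 were above 0 and 12 below in OPC, and 4 were higher and 2 lower in OL, which turned to 2 higher and 4 lower at equal mean and SD. Serpina7, which encodes thyroxine-binding globulin, stood highest at 1.98 ± 0.12 in OPC (SD, n = 3). Trhr, the TRH receptor gene, rose by 0.45 (limma adjusted p = 0.00216), and the thyroglobulin gene Tg fell from 0.08 ± 0.05 to −0.30 ± 0.11 (limma adjusted p = 0.00687). Tshb, a thyrotropin subunit gene, was higher by 0.38, called in 3 of 6 fits that left out 1 library. Slc5a5, the iodide transporter gene, was higher by 0.37, a call lost under all 3 scalings.

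Of 16 other KLF genes, 2 were above 0 and 14 below in OPC, with a median of −1.87 beside −2.06 for Klf9, and 4 were higher and 1 lower in OL (3 and 3 at equal mean and SD). Klf8 was above 0 in every library (0.78 ± 0.05 in OPC, SD, n = 3). Klf16 rose by 0.65 (limma adjusted p = 0.00135) and Klf6 by 0.46 (limma adjusted p = 0.00389). Klf14 rose by 0.55 and Klf4 fell by 0.38, called in 3 and 4 of 6 fits that left out 1 library. Klf9 did not pass the test.

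**Figure D5:**
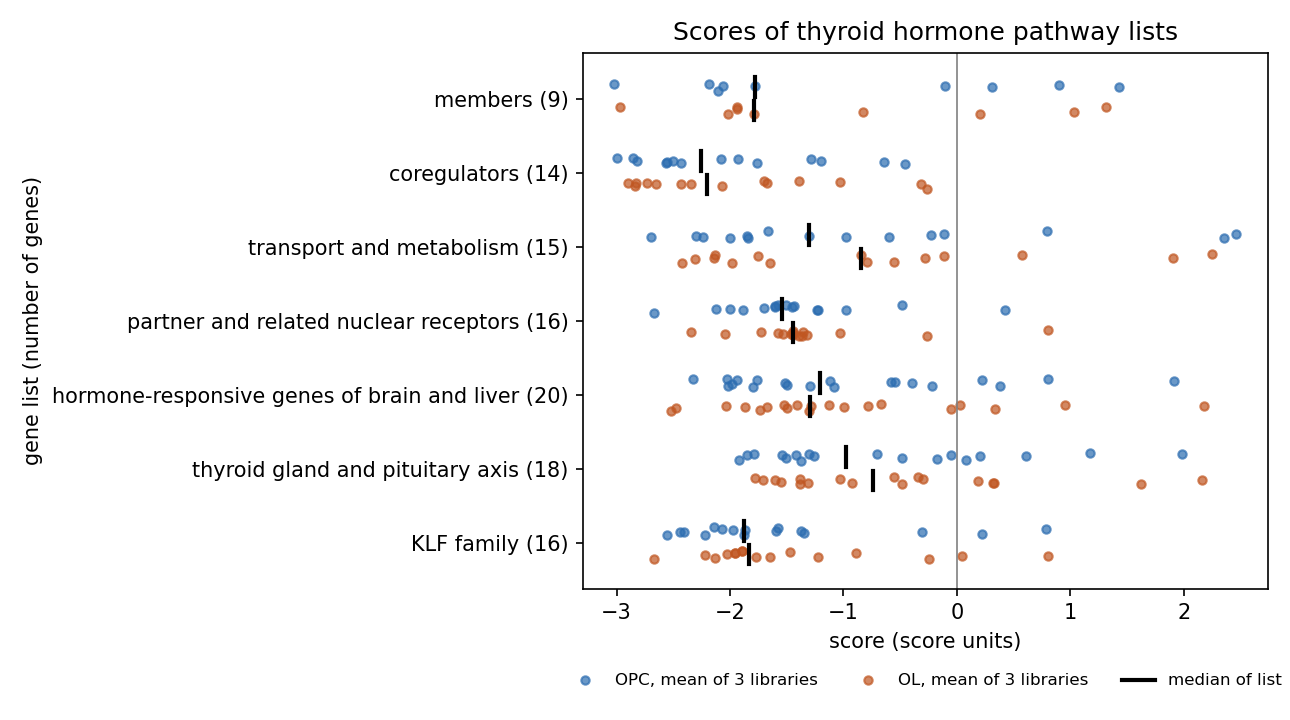
Mean score of 3 libraries (score units, horizontal axis) for the 9 genes and 6 pathway lists, in OPC (blue) and OL (orange), with bars at list medians. All 14 coregulators lie below 0, and the other lists hold genes on both sides.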

How the data were processed

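Scores of 6 Dam-LMNB1 libraries over 21534 gene regions were used as the authors deposited them, on mm10. Per the file headers a score sets a single Dam-LMNB1 library against the Dam libraries of its medium as a pool. The submitters' processing notes list cutadapt 1.9.1 and BWA 0.7.17, and the step from reads to scores is unknown. The authors also deposited a p-value and an adjusted p-value per region, from a test that is not named. From the scores, limma 3.58.1 in R 4.3.3 was run over all regions with 1 mean per medium and a variance trend (9.42 degrees of freedom), two-sided, with Benjamini-Hochberg adjustment over all regions and a threshold of 0.05. The script was tested on simulated data. No filter was applied. The genes and lists were chosen with earlier results of these data known. Named were the 9 genes, overlapping regions, the nearest region of each sign, the 2 most alike genes of each, and per list up to 3 called genes with the largest rise, 3 with the largest fall and 3 highest above 0. Some genes that this rule names are not reported here. Other neighbours within 1 Mb were named after their values were seen. Where a symbol had more than 1 region, the widest was used. RefSeq tables (GRCm38.p6) gave start sites, gene types and sequences. Alternatives were 3 scalings (median centring, equal mean and SD, quantile), other variance models, protein-coding genes only, a window of 500 kb and leaving out each library. A further alternative was a Welch test per region, without shared spread between regions or media.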

Additional observations from a re-analysis of the deposited data

How the results depend on the processing

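Calls of the 9 genes against 0 held under every alternative run for them. These were the other variance models, protein-coding genes only and leaving out each library. The 3 scalings, which can move scores relative to 0, were not run for these calls. The number of the 9 called higher in OL was 0, not 1, under each of the 3 scalings, in the test per region without shared spread, and without any 1 library (0 to 0). The number lower was 2 with libraries centred on their median, where Dio2 joined Rxrg (difference −0.19, limma adjusted p = 0.0413), and 0 in the test without shared spread. Differences that did not pass the test changed sign under some alternatives for Klf9 (down to −0.10), Ncor1 (down to −0.12) and Thra (up to 0.06). Over all regions the test without shared spread called 566 higher and 359 lower, in place of 4963 and 2345. Leaving out 1 library gave 3136 (without OPC library 9) to 4132 higher and 1673 to 2552 lower. At equal mean and SD the median change was 0.02, and the list counts became 2 higher and 4 lower for coregulators, 2 higher and 4 lower for the thyroid axis, 1 higher for hormone-responsive genes and 3 lower for KLF genes. Of 91 genes checked one by one, 57 were called, but many of the 91 were named because they were called. Over all regions 23.0% were higher in OL and 10.9% lower. Of the 57, 46 kept the call under all 3 scalings, 31 without each library in turn and 6 in the test without shared spread. In a window of 500 kb the share of regions above 0 in all libraries was 0% around Thrb and Thra and 100% around Slco1c1 and Dio2. In 1 Mb the shares were 33.3%, 17.1%, 75% and 60%, beside 24.8% of all regions. In that order, the windows held 4, 34, 4 and 2 regions in 500 kb and 6, 76, 16 and 5 in 1 Mb, mostly too few for a firm share. The causes were not tested. No paired analysis was possible because the media share no library numbers. Depth is unknown, so what it limits was not computed.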
